A study of Homo sapiens with 6 samples.

Results

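The aldo-keto reductases AKR1B1, AKR1B10, AKR1C1, AKR1C2 and AKR1C3, the detoxification enzymes ALDH3A1, NQO1 and TXNRD1, and the regulators NFE2L2 and KEAP1 were followed in A549 cells kept without glucose. These 10 genes were taken by their official symbols from the 19240 genes of the deposited count table, and all 10 were found there and passed the filter on low counts. A549 is an established human lung carcinoma line. It was cultured for 48 h in medium without glucose (3 libraries) or in medium with 25 mM glucose (3 libraries), and transcripts were counted from their 3' ends. The labels name no other treatment and no genetic change in either group. A549 is known to carry an inactivating KEAP1 mutation and high NRF2 activity, a background that both groups share. Whether replicates were grown as separate cultures is not stated, so p-values here measure a spread that could be purely technical.

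NRF2, the protein of NFE2L2, is a transcription factor that binds antioxidant response elements together with small MAF proteins. KEAP1 holds NRF2 in the cytoplasm and hands it to a CUL3 ubiquitin ligase for degradation, and electrophiles that modify KEAP1 release NRF2. Its targets reduce quinones, carbonyls and disulfides, mostly at the expense of NADPH. The control of NRF2 lies largely in the stability of the protein, which transcript counts do not measure.

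Gene counts were 11086416, 12782563 and 14060313 in replicates 1, 2 and 3 without glucose, and 6701004, 10323290 and 14259943 in replicates 1, 2 and 3 with glucose. The groups lay apart on the first principal component (56.7% of the variance). Replicate 1 with glucose stood apart from the other libraries of its group on the second component (score −40.4, against 23.8 and 20.3), and results are given below without it where it matters. The epithelial keratin genes KRT8 and KRT18 had at least 7615 counts in every library, SFTPC, SFTPA1 and DCN had a count of 0 in each, and so had CDKN2A, which is deleted in A549. The epithelial markers KRT19, EPCAM and CDH1 had far fewer counts than those keratins, at 274 to 449, 18 to 80 and 46 to 104 in a library. PTPRC, the general leukocyte marker, had at most 4 counts in a library. Of the 5 alveolar type 2 markers, SFTPC and SFTPA1 were thus not detected, NKX2-1 had at most 2 counts and SFTPB 4 to 13 counts in a library. ABCA3, a lamellar body lipid transporter, had 22.1 ± 2.52 CPM without glucose and 14.7 ± 0.53 CPM with glucose (SD, n = 3 each), without overlap, and did not pass (edgeR adjusted p = 0.0581).

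Without glucose, AKR1B10, AKR1C2, AKR1C3 and ALDH3A1 fell to between 0.36 and 0.53 of their level with glucose, while AKR1B1, AKR1C1, NQO1, TXNRD1, NFE2L2 and KEAP1 did not pass the test. Of all 11886 genes tested, 10.7% were called lower and 22.3% were called in either direction at an adjusted p under 0.05 (edgeR quasi-likelihood test, adjusted by Benjamini-Hochberg over all of them). The members called lower were 4 of 10. The number called higher by edgeR was 0, against 11.6% of all genes tested. At an unadjusted edgeR p under 0.05, 0 were higher and 5 lower, beside 2306 and 2027 of the 11886 genes tested. The DESeq2 Wald test called 0 higher and 5 lower, beside 1476 and 1504 of all genes. Levels are given in CPM, the count divided by the scaled library size and expressed per 1e6. The CPM of the groups did not overlap for 6 of the 10 genes, against 40.4% of all genes tested. Without glucose was below for 5 of them, against 19.4% of all genes tested, and above for 1, against 21% of all genes tested. The median log2 fold change over the 10 was −0.42, beside 0.02 over all genes tested. The 10 genes were chosen with earlier results of these data known, so these shares and this median are a description only. In bulk samples, less RNA per cell and fewer cells that express a gene cannot be told apart.

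**Figure D1:**
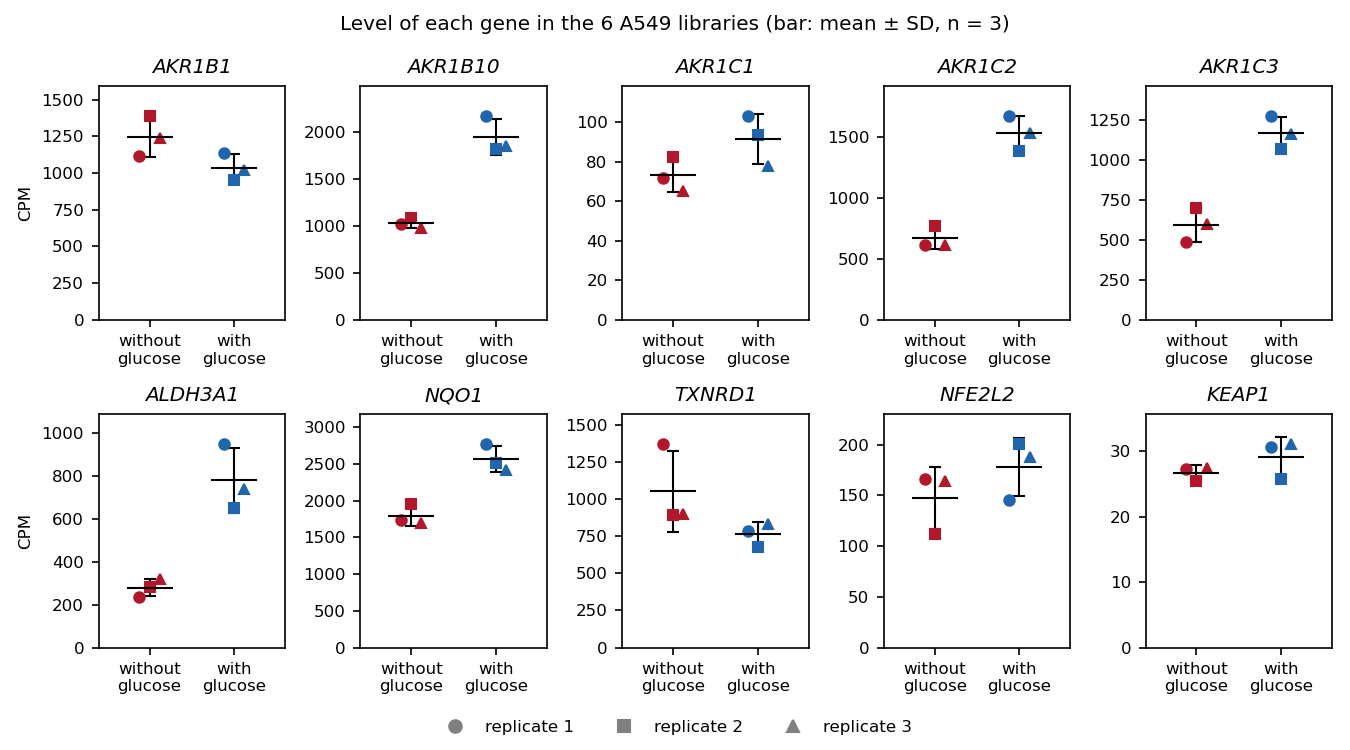
Level in CPM (vertical axes, each from 0) of the 10 genes in the 3 libraries without glucose (red) and the 3 with glucose (blue). Symbols mark replicates and bars give the mean ± SD. AKR1B10, AKR1C2, AKR1C3, ALDH3A1 and NQO1 lie lower in every library without glucose, TXNRD1 lies higher, and the other 4 genes overlap.

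The AKR1C genes encode hydroxysteroid dehydrogenases that reduce ketosteroids, prostaglandins and reactive aldehydes, and they sit next to each other on chromosome 10. Their upstream sequences are shown because they let the likeness of the copies be set beside their measured changes. Each stretch holds the 250 bases before the RefSeq transcription start (assembly GRCh38.p14; for AKR1C3, the first of 2 listed starts), and the capitals mark an inverted CCAAT box, read as ATTGG, found by searching CCAAT on both strands.
AKR1C1, chr10:4963165-4963414, plus strand: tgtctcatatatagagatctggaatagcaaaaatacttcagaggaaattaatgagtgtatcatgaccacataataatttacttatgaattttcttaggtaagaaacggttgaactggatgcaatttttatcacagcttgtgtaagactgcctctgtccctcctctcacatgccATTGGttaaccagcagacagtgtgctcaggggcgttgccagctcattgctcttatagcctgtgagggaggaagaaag
AKR1C2, chr10:5003858-5004107, minus strand: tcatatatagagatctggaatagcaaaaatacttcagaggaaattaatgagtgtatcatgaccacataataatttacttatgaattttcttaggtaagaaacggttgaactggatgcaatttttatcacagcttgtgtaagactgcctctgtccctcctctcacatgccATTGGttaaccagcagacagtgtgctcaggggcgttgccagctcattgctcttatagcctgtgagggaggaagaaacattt
AKR1C3, chr10:5048531-5048780, plus strand: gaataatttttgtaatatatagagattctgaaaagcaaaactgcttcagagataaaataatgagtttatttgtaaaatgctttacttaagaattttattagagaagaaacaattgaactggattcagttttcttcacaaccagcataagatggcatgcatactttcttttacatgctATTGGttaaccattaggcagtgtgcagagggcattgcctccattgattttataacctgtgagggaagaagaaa
The AKR1C1 and AKR1C2 stretches differed at 1 of 246 aligned bases. AKR1C3 was 76.8% identical to AKR1C1 and 77.2% identical to AKR1C2. The first base of the inverted box lies at −77 in AKR1C1, at −81 in AKR1C2 and at −73 in AKR1C3. A CCAAT on either strand is present in 32% of the 35116 upstream stretches of the same length.

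AKR1C2, also known as type 3 3α-hydroxysteroid dehydrogenase, had 614, 769 and 615 CPM in replicates 1, 2 and 3 without glucose, against 1666, 1386 and 1532 CPM in replicates 1, 2 and 3 with glucose. Every library without glucose lay below every library with glucose. It fell 2.29-fold, with a log2 fold change of −1.20 ± 0.19 (SE) and an edgeR adjusted p of 0.00113. AKR1C3, which reduces androstenedione to testosterone and makes prostaglandin F2α, had 485, 698 and 597 CPM in replicates 1, 2 and 3 without glucose, against 1272, 1069.6 and 1162 CPM in replicates 1, 2 and 3 with glucose. Here too the groups did not overlap, and the gene fell 1.97-fold (log2 fold change −0.98 ± 0.20, edgeR adjusted p = 0.00485).

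AKR1C1, a 20α-hydroxysteroid dehydrogenase that inactivates progesterone, had 72.0, 82.3 and 65.2 CPM in replicates 1, 2 and 3 without glucose, against 103, 93.7 and 77.7 CPM in replicates 1, 2 and 3 with glucose. The groups overlapped, since replicate 2 without glucose lay above replicate 3 with glucose. Its log2 fold change of −0.32 ± 0.20 did not pass (edgeR adjusted p = 0.278), with a 95% interval from −0.76 to 0.12. AKR1C2 and AKR1C1, whose upstream stretches are nearly identical, thus had measured log2 fold changes of −1.20 and −0.32. Both values are uncertain, since some annotated ends of these copies are shared, as set out below.

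The copies were compared within each library, where library scaling cancels. AKR1C1 took 6.14% of the summed AKR1C1, AKR1C2 and AKR1C3 counts in replicate 1 without glucose (95% Clopper-Pearson interval 5.73% to 6.58%), 5.31% in replicate 2 (5.01% to 5.63%) and 5.10% in replicate 3 (4.78% to 5.44%). With glucose it took 3.38% in replicate 1 (3.15% to 3.63%), 3.67% in replicate 2 (3.45% to 3.91%) and 2.80% in replicate 3 (2.64% to 2.97%). The AKR1C1 share was higher in all 3 libraries without glucose. AKR1C2 held 50.1% ± 2.17 of the summed counts without glucose and 54.8% ± 0.46 with glucose (SD, n = 3 each), with every library without glucose lower. An exact two-sided permutation test over the libraries gave p = 0.1 for AKR1C1 and for AKR1C2, the smallest p that 3 against 3 allows. AKR1C3 held 44.4% ± 2.71 without glucose and 41.9% ± 0.07 with glucose (exact permutation p = 0.4, n = 3 each), with overlapping groups. That difference of 2.50 percentage points was 1.33 when replicate 3 of the cells lacking glucose was left out and 3.99 when their replicate 1 was. With the ratio of AKR1B10 to AKR1B1 below, 4 such measures were tested, and none could pass 0.05 in this design. The intervals cover counting error only.

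The summed level of the 3 copies was 1171, 1549.9 and 1277 CPM in replicates 1, 2 and 3 without glucose, against 3040.5, 2549 and 2772 CPM in replicates 1, 2 and 3 with glucose. The lowest sum with glucose was above the highest without it. Reads that align to several genes are left out of the gene counts, and some annotated ends of the AKR1C genes are shared. Of the 50-base windows in the last 300 bases of AKR1C2 transcripts in GENCODE release 29, 94.0% of those of the 1481-base transcript and 80.1% of those of the 3756-base transcript also occur in an AKR1C1 transcript. The share was 44.2% for the 1098-base AKR1C2 transcript and 41.8% for the 745-base one. The sharing was uneven: of the AKR1C1 transcripts, the 744-base one had 60.2% of its windows in AKR1C2, and the 858-base and 6705-base ones had none in another gene. Of the AKR1C3 transcripts, the 972-base one had 48.6% of its windows in AKR1C2, and the 1807-base, 1405-base and 636-base ones had none in another gene. For all annotated protein-coding transcripts of AKR1B1, AKR1B10, ALDH3A1, NQO1, TXNRD1, NFE2L2 and KEAP1, no such window occurs in a transcript of another gene. The values of AKR1C1, AKR1C2 and AKR1C3, and the shares among them, are therefore uncertain, and which ends are used in these cells is not known here. The part of this sharing in the differences among the copies was not tested. AKR1C4, the liver-type copy, had 0, 0 and 4 counts in replicates 1, 2 and 3 without glucose and 2, 18 and 11 counts in replicates 1, 2 and 3 with glucose, and was not tested.

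**Figure D2:**
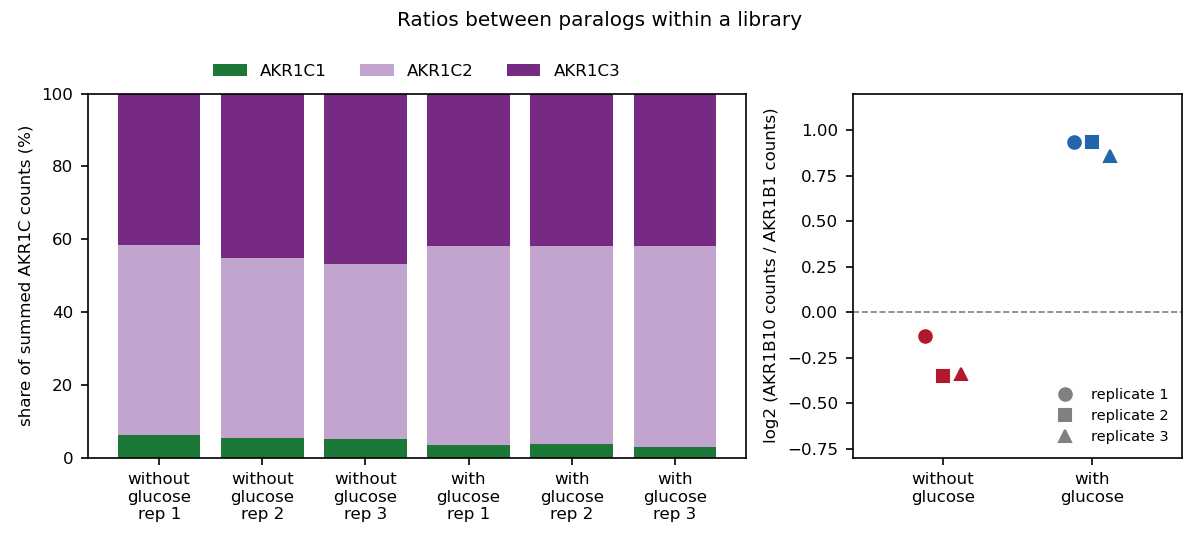
Left, share of AKR1C1, AKR1C2 and AKR1C3 in their summed counts (percent, stacked bars) in each library; right, log2 ratio of AKR1B10 to AKR1B1 counts in each library, by replicate. AKR1C1 holds 5.10% to 6.14% without glucose and 2.80% to 3.67% with glucose, and the log2 ratios form non-overlapping groups with means of −0.27 without glucose and 0.91 with glucose.

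Of the AKR1B pair, AKR1B10 passed the test and AKR1B1 did not. AKR1B10, which reduces retinal, cytotoxic aldehydes and ketones and is a known marker of NRF2 activity in lung cancer, had 1019, 1084 and 978 CPM in replicates 1, 2 and 3 without glucose, against 2165, 1816 and 1849 CPM in replicates 1, 2 and 3 with glucose. The groups did not overlap. The gene fell 1.89-fold (log2 fold change −0.92 ± 0.18, edgeR adjusted p = 0.00391). AKR1B1, aldose reductase, turns glucose into sorbitol in the polyol pathway. It had 1116, 1384 and 1237 CPM in replicates 1, 2 and 3 without glucose, against 1133, 951 and 1022 CPM in replicates 1, 2 and 3 with glucose, so the groups overlapped. Its log2 fold change was 0.27 ± 0.19 (edgeR adjusted p = 0.326, 95% interval −0.14 to 0.67).

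The log2 ratio of AKR1B10 to AKR1B1 counts averaged −0.27 ± 0.12 without glucose and 0.91 ± 0.05 with glucose (SD, n = 3 each). The difference was −1.18 (exact two-sided permutation p = 0.1, the smallest possible), and all 3 libraries without glucose were below all 3 with glucose. It was −1.25 to −1.14 when any 1 library was left out. The sign of a ratio carries no meaning, since the reads per transcript molecule may differ between the genes. AKR1B15, the closest relative of AKR1B10, had 4.90 ± 0.78 CPM without glucose and 7.25 ± 1.27 CPM with glucose (SD, n = 3 each). The groups did not overlap for AKR1B15, but its log2 fold change of −0.55 did not pass (edgeR adjusted p = 0.183).

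ALDH3A1 oxidizes aromatic and medium-chain aldehydes to acids. It had the largest fall of the 10 genes. Its level was 237, 282 and 317 CPM in replicates 1, 2 and 3 without glucose, against 946, 652 and 736 CPM in replicates 1, 2 and 3 with glucose. The highest library without glucose was below the lowest with glucose. ALDH3A1 fell 2.79-fold (log2 fold change −1.48 ± 0.22, edgeR adjusted p = 6.56e-04).

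NQO1, the quinone reductase and a classical NRF2 target, had 1738, 1948 and 1689 CPM in replicates 1, 2 and 3 without glucose, against 2766, 2509 and 2422 CPM in replicates 1, 2 and 3 with glucose. The groups did not overlap, but the log2 fold change of −0.52 ± 0.18 missed the threshold (edgeR adjusted p = 0.0535). It passed with DESeq2 size factors as scaling (0.0462), with library totals as scaling (0.0483) and by the DESeq2 Wald test (0.0185), and not in the other 9 alternatives, where the adjusted p reached 0.161.

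TXNRD1, the cytosolic thioredoxin reductase that keeps thioredoxin reduced with NADPH, had 1371, 893 and 898 CPM in replicates 1, 2 and 3 without glucose, against 789, 681 and 831 CPM in replicates 1, 2 and 3 with glucose. All libraries without glucose lay above those with glucose, replicate 1 by a wide margin and the others narrowly. The log2 fold change was 0.46 ± 0.22 (edgeR adjusted p = 0.148, 95% interval −0.01 to 0.93) and 0.22 without that library.

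The transcripts of the regulators NFE2L2 and KEAP1 did not pass the test. NFE2L2 had 166, 112 and 164 CPM in replicates 1, 2 and 3 without glucose, against 146, 201 and 188 CPM in replicates 1, 2 and 3 with glucose. The groups overlapped, and the log2 fold change was −0.27 ± 0.22 (edgeR adjusted p = 0.407, 95% interval −0.75 to 0.21). KEAP1 had 27.3, 25.4 and 27.5 CPM in replicates 1, 2 and 3 without glucose, against 30.7, 25.7 and 31.1 CPM in replicates 1, 2 and 3 with glucose, again with overlap (log2 fold change −0.13 ± 0.19, edgeR adjusted p = 0.668, 95% interval −0.54 to 0.29).

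**Figure D3:**
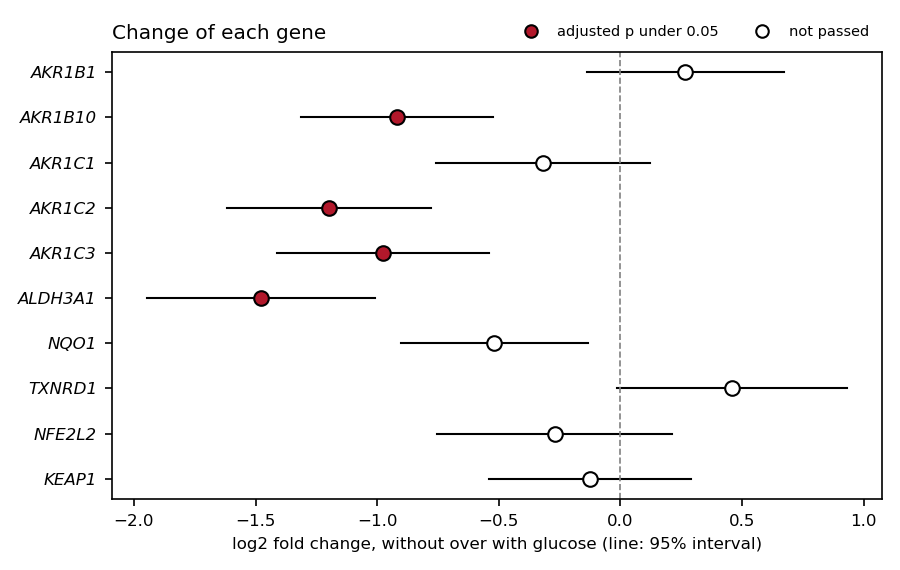
Log2 fold change without over with glucose (horizontal axis) for the 10 genes, with 95% intervals as lines. Filled points passed at an adjusted p under 0.05: AKR1B10, AKR1C2, AKR1C3 and ALDH3A1, at −0.92, −1.20, −0.98 and −1.48. The open points for NQO1 and TXNRD1 lie at −0.52 and 0.46, on opposite sides of 0.

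The calls did not rest on the library that stood apart. Without replicate 1 with glucose, the log2 fold changes were −0.84 for AKR1B10, −1.13 for AKR1C2, −0.91 for AKR1C3 and −1.32 for ALDH3A1. All 4 passed when any 1 library was left out, with edgeR adjusted p up to 0.0259. The epithelial markers KRT8, KRT18, KRT19, EPCAM and CDH1 moved in part with these genes: their summed level was 1511 to 1820 CPM without glucose and 3117.5 to 3894 CPM with glucose. KRT8 and KRT18, which made up most of that sum, fell by 1.18 and by 0.90 on the log2 scale. KRT19, EPCAM and CDH1 did not pass. KRT19 had 24.6 CPM without glucose and 34.8 CPM with glucose, without overlap. EPCAM had 3.09 CPM without glucose and 4.10 CPM with glucose, with overlap. CDH1 went the other way, at 7.88 CPM without glucose and 5.93 CPM with glucose, without overlap. The summed level of the 6 leukocyte, endothelial and fibroblast markers was 30.5 to 43.7 CPM without glucose and 27.3 to 30.2 CPM with glucose, with DCN at 0 in every library. Within that sum, CD68, a lysosomal protein of macrophages, rose to 31.0 ± 7.38 CPM without glucose, against 15.1 ± 0.86 CPM with glucose (SD, n = 3 each, edgeR adjusted p = 0.00605). COL1A1, a collagen chain, fell to 4.87 ± 0.60 CPM without glucose, against 12.6 ± 1.70 CPM with glucose (SD, n = 3 each, edgeR adjusted p = 0.00263). The part of these differences in the fall of the 4 genes was not tested.

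The profile of AKR1B10 over the 6 libraries was compared with those of 11142 other genes by the root-mean-square distance of centred log2 CPM. FADS2, the delta-6 fatty acid desaturase, was nearest at 0.03, followed by KRT18, a keratin of simple epithelia, at 0.05 and CYB561A3, a lysosomal ferric reductase, at 0.06. FADS2 had 128 ± 5.39 CPM without glucose and 244 ± 26.1 CPM with glucose (SD, n = 3 each). Among the other members, AKR1C3 and AKR1C2 were nearest to AKR1B10, at 0.14 and 0.16, and TXNRD1 was farthest at 0.715. These distances are a description, and the group difference itself enters them. FADS2, KRT18 and CYB561A3 were picked for their likeness to AKR1B10, so their similar log2 fold changes (−0.93, −0.90 and −0.87) follow from that choice.

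An antioxidant response element core, searched as TGACNNNGC on both strands, was looked for in the 250 upstream bases of the members with an entry (8 of 10; AKR1B10 and ALDH3A1 were not among them). It was present in 1 of the 2 KEAP1 stretches and in both TXNRD1 stretches, and in 10.9% of all 35116 stretches. The stretches of AKR1B1, AKR1C1, AKR1C2, AKR1C3, NQO1 and NFE2L2 held no such letters, which says nothing of elements farther away. The stretch before the downstream TXNRD1 start is shown, chosen by the direction of that gene. TXNRD1 was the only NRF2 target of the 10 whose libraries were all higher without glucose. That change did not pass (edgeR adjusted p = 0.148), and KEAP1, which also holds a match, overlapped between the groups. Which TXNRD1 start is used in these cells is not known here, and any part of the match in its level was not tested. In the TXNRD1 stretch, the capitals mark the match, on the opposite strand, with its first base at −102.
TXNRD1, chr12:104286782-104287031, plus strand: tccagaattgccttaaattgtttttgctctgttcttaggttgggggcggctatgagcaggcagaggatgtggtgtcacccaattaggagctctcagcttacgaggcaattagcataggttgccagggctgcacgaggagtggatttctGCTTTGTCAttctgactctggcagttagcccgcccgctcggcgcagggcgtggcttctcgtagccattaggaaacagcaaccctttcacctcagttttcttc

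Other known NRF2 targets went both ways. Of 35 further targets, all tested, 3 rose, 5 fell and 27 did not pass. That is 22.9% called, close to the 22.3% of all genes, and their median log2 fold change was 0.03. At an unadjusted edgeR p under 0.05, 4 were higher and 10 lower, beside 2306 and 2027 of all 11886 genes tested. The DESeq2 Wald test called 4 higher and 8 lower, beside 1476 and 1504 of all genes. GPX2, a glutathione peroxidase of epithelia, fell to 73.2, 97.9 and 67.4 CPM in replicates 1, 2 and 3 without glucose, against 294, 238 and 275 CPM in replicates 1, 2 and 3 with glucose, with no overlap (log2 fold change −1.76 ± 0.22, edgeR adjusted p = 2.35e-04). The other targets that fell were CBR3, a carbonyl reductase, PRDX1, a peroxiredoxin, and PGD and TKT of the pentose phosphate pathway, with log2 fold changes of −1.20, −0.84, −0.77 and −0.74. PGD missed the threshold when replicate 3 of the cells lacking glucose (edgeR adjusted p = 0.0766) or replicate 2 with glucose (0.0817) was left out. TKT missed it when replicate 3 of the cells lacking glucose (edgeR adjusted p = 0.0676) or replicate 3 with glucose (0.0837) was left out, and with a replicate block both missed it (0.0517 for PGD and 0.0625 for TKT). IDH1, the cytosolic NADPH-forming isocitrate dehydrogenase, rose to 175, 259.8 and 206 CPM in replicates 1, 2 and 3 without glucose, against 86.9, 86.3 and 75.9 CPM in replicates 1, 2 and 3 with glucose (log2 fold change 1.36 ± 0.21, edgeR adjusted p = 9.02e-04). ABCC3, an exporter of organic anions and drug conjugates, rose 2.17-fold and ABCB6, a porphyrin transporter, 1.87-fold. The number of these targets that fell was 3 when replicate 3 of the cells lacking glucose was left out and 8 when their replicate 2 was.

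The glutathione synthesis targets GCLC and GCLM, the subunits of glutamate-cysteine ligase, had log2 fold changes of −0.08 (95% interval −0.53 to 0.37) and −0.12 (−0.54 to 0.30). SLC7A11, the cystine carrier, had 0.36 (−0.08 to 0.80). SRXN1, the sulfiredoxin, had 230 ± 13.4 CPM without glucose and 162 ± 6.28 CPM with glucose, and HMOX1, heme oxygenase 1, had 58.0 ± 16.2 CPM without glucose and 90.7 ± 17.8 CPM with glucose (SD, n = 3 each). The groups did not overlap for SLC7A11, SRXN1 or HMOX1, with SLC7A11 and SRXN1 higher without glucose and HMOX1 lower. All of them missed the threshold (edgeR adjusted p = 0.218, 0.0651 and 0.0778). These 5 genes, named after their values were seen, are the ones most often read beside NQO1 as NRF2 targets.

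Among 17 other regulators of the pathway, 15 were tested, 3 rose, 1 fell and 11 did not pass. That is 26.7% called, beside 22.3% of all genes tested, with a median log2 fold change of 0.29. SYVN1, the ubiquitin ligase HRD1 of endoplasmic reticulum degradation, which can also target NRF2, had 74.3, 80.2 and 72.2 CPM in replicates 1, 2 and 3 without glucose, against 23.6, 18.1 and 18.2 CPM in replicates 1, 2 and 3 with glucose. It rose with no overlap (log2 fold change 1.92 ± 0.20, edgeR adjusted p = 9.93e-05). SQSTM1, the autophagy receptor p62 that binds KEAP1, rose 1.93-fold (log2 fold change 0.95 ± 0.21, edgeR adjusted p = 0.00644). NFE2L1, an NRF2 relative that controls proteasome genes, rose 1.97-fold. PGAM5, a mitochondrial phosphatase that binds KEAP1, fell 2.02-fold (log2 fold change −1.01 ± 0.20, edgeR adjusted p = 0.00406). The small MAF partners MAFF, MAFG and MAFK, the repressor BACH1 and the ligase gene CUL3 did not pass.

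The other aldo-keto reductases and aldehyde dehydrogenases were mostly without a call. Of 29 listed, 20 were tested and 2 rose. The share called was 10%, beside 22.3% of all genes tested, and the median log2 fold change was 0.15. None was called lower by edgeR, beside 10.7% of all genes tested. At an unadjusted edgeR p under 0.05, 4 were lower, beside 2027 of all 11886 genes tested. The DESeq2 Wald test called 2 lower, beside 1504 of all genes. ALDH1L2, a mitochondrial folate enzyme, had 105, 47.2 and 34.8 CPM in replicates 1, 2 and 3 without glucose, against 10.3, 13.1 and 12.9 CPM in replicates 1, 2 and 3 with glucose (log2 fold change 2.35 ± 0.36, edgeR adjusted p = 8.02e-04). The spread without glucose was wide, and without replicate 1 of that group the log2 fold change was 1.75. ALDH6A1, of valine breakdown, rose by 0.68 on the log2 scale (edgeR adjusted p = 0.0356), a call lost in 7 of 12 alternatives, among them leaving out any replicate of the cells lacking glucose, or replicate 1 or 3 with glucose (0.0517 to 0.125). ALDH2, the mitochondrial enzyme that clears acetaldehyde, had a log2 fold change of 0.58 (edgeR adjusted p = 0.0516). ALDH3A2, the fatty aldehyde dehydrogenase and relative of ALDH3A1, had 136 CPM without glucose and 231 CPM with glucose and missed the threshold (edgeR adjusted p = 0.0614).

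Of 22 other thioredoxin, peroxiredoxin, glutaredoxin and quinone oxidoreductase genes, 20 were tested, 3 rose and 3 fell. This made 30% called, beside 22.3% of all genes tested, with a median log2 fold change of −0.08. GLRX, the cytosolic glutaredoxin, rose to 113, 131 and 129 CPM in replicates 1, 2 and 3 without glucose, against 62.5, 76.8 and 62.1 CPM in replicates 1, 2 and 3 with glucose (log2 fold change 0.89 ± 0.20, edgeR adjusted p = 0.00711). GLRX5, a mitochondrial glutaredoxin of iron-sulfur cluster assembly, fell by 0.96 on the log2 scale (edgeR adjusted p = 0.00751). CAT, catalase, and TXN2, the mitochondrial thioredoxin, fell by 0.73 and 0.95, and PRDX5 and TP53I3, a quinone oxidoreductase, rose by 0.67 and 0.67. CAT missed the threshold when replicate 3 of the cells lacking glucose, or replicate 2 or 3 with glucose, was left out (edgeR adjusted p from 0.0597 to 0.0845), and TXN2 missed it in 5 of the 6 fits with 1 library left out, passing only without replicate 2 from the medium lacking glucose (up to 0.136). PRDX5 and TP53I3 missed it without replicates 2 or 3 of either group (up to 0.149). They also missed it with library totals as scaling (edgeR adjusted p = 0.0633 and 0.0547) and with a replicate block (0.0989 and 0.0839). CAT missed it with a replicate block too (edgeR adjusted p = 0.0606). TXNRD2, the mitochondrial counterpart of TXNRD1, had a log2 fold change of 0.01, and NQO2, the relative of NQO1, had 0.22; neither passed.

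**Figure D4:**
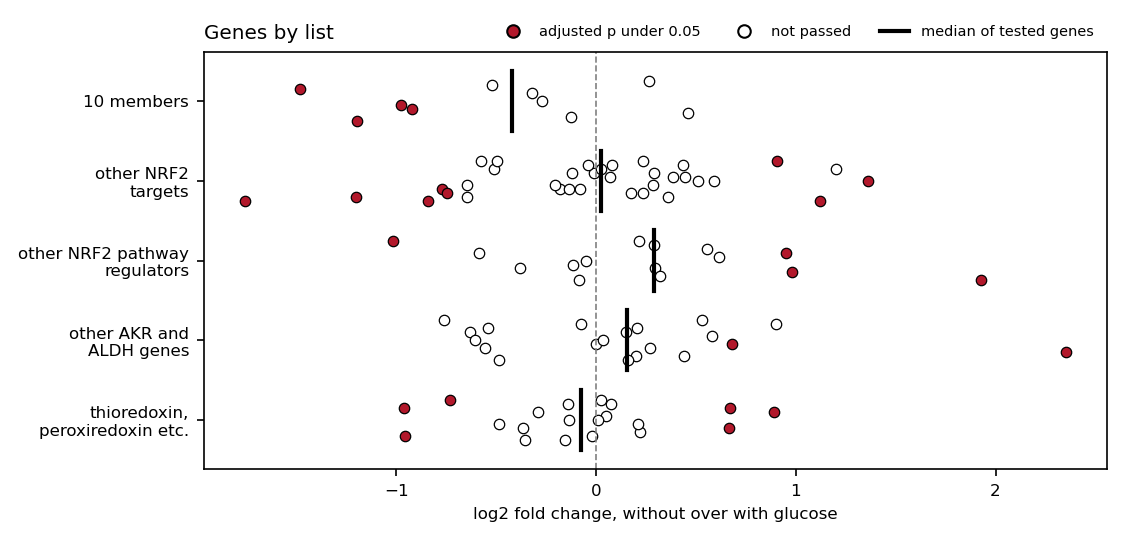
Log2 fold change without over with glucose (horizontal axis) of each tested gene, in rows for the 10 genes and for 4 related lists. Filled points passed at an adjusted p under 0.05 and thick lines mark medians, which run from −0.42 for the 10 genes to 0.29 for the other NRF2 regulators.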

How the data were processed

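Per the labels' protocols, oligo-dT primers carried a sample barcode, cDNA was pooled by Actb level, and the pool got 12 cycles of PCR to give strand-specific libraries. No molecular identifiers are mentioned, so PCR copies may be counted and intervals cover counting error only. The authors deposited raw read counts per Entrez gene, made with STAR and HTSeq on hg19 per the submitters' processing notes; no version, gene model set or strand setting is given in the sources used here. Reads in genes were 43.1% to 44.7%, outside genes 32.8% to 36.5%, with several alignments 18.4% to 22.2% and ambiguous 0.369% to 0.418%; the 5 summary lines stayed out of library sizes and tests. Symbols came from a RefSeq table (GRCh38.p14), used for names, for 19178 of 19240 genes.

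The groups were compared with edgeR 4.0.16 (quasi-likelihood F test, two-sided, TMM, filterByExpr at a minimum count of 10, no replicate block, R 4.3.3). SEs were derived as the absolute log2 fold change over √F and are approximate. CPM and ratios were computed here from the deposited counts. Upstream sequences come from RefSeq, and were aligned with Biopython 1.88. The script was tested on simulated data. Alternatives were the DESeq2 1.42.0 Wald test, other scalings and filters, a replicate block and leaving out each library. Libraries of a group differed beyond sampling noise (chi-square per degree of freedom 22.1 to 57.3), so none were merged. The text names the 10 members, the 3 genes with the smallest p in each of 4 related lists, TXNIP and the 3 profiles nearest to AKR1B10; other genes were named after their values were seen. TXNIP had at most 5 counts in a library and was not tested. The members and lists were chosen with earlier results of these data known.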

Additional observations from a re-analysis of the deposited data

How the results depend on the processing

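The counts of members called (4 lower, 0 higher) kept within 1.5 times under all 12 alternatives: 4 or 5 were lower, 5 where NQO1 passed, and 0 were higher. AKR1B10, AKR1C2, AKR1C3 and ALDH3A1 passed in all 12, with log2 fold changes from −0.98 to −0.84, −1.33 to −1.13, −1.12 to −0.85 and −1.59 to −1.32. No direction of a called gene reversed. Over all genes 1376 were higher and 1276 lower; leaving out 1 library gave 860 to 1292 and 781 to 1232, with 860 and 894 higher without replicates 2 and 3 with glucose and 870 higher and 781 lower without replicate 3 of the cells without glucose. Same-numbered libraries showed no clear shared deviation (correlations −0.25, −0.11 and 0.03 for replicates 1, 2 and 3). Such weak correlations cannot exclude a shared culture, day or batch, and what the number marks is not stated. By the DESeq2 Wald test 1476 genes were higher and 1504 lower. With a replicate block 984 genes were higher and 911 lower. In that fit 3 other NRF2 targets fell, 1 other aldo-keto reductase or aldehyde dehydrogenase rose and 1 gene of the thioredoxin list rose. For the other NRF2 targets, 8 fell by the DESeq2 Wald test and 3 to 8 on leaving out 1 library. For the other aldo-keto reductases and aldehyde dehydrogenases, 1 rose and 1 fell with library totals as scaling, 1 fell with no filter on low counts, 2 fell by the DESeq2 Wald test, and 1 to 3 rose and 0 to 2 fell on leaving out 1 library. For the thioredoxin list, 1 rose with library totals as scaling, and 1 to 3 rose and 1 to 3 fell on leaving out 1 library. For the other regulators 3 to 4 rose and 1 to 2 fell. Leaving out 1 library gave share differences, without minus with glucose, of 1.92 to 2.44 percentage points for AKR1C1, −5.91 to −3.78 for AKR1C2 and 1.33 to 3.99 for AKR1C3. The cause of these changes was not tested. Depth limits genes of few counts: a count of 0 allows up to 0.211 to 0.424 CPM in a library.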

Other observations

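The 10 genes together held 0.651%, 0.744% and 0.636% of the gene counts in replicates 1, 2 and 3 without glucose, and 1.16%, 0.946% and 0.982% in replicates 1, 2 and 3 with glucose. PRDX2, a peroxiredoxin that most cells express, had 2 counts in 1 library and 0 in the other 5, and TXNIP, a thioredoxin-binding protein induced by glucose in many cells, had 1, 5 and 3 counts in replicates 1, 2 and 3 without glucose and 0, 2 and 3 with glucose. A count near 0 in this table is therefore not read as absence of a transcript.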
